A study of Mus musculus with 3 samples.

Results

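Whole-kidney transcriptomes of Enl-T1 embryos exposed to TDI-11055 were compared with those of untreated Enl-T1 embryos, genome-wide and outside the *Hox* genes and the genes of the electron transport chain. The comparison covered every gene with at least 50 CPM in at least 1 of both libraries, where CPM is the number of a gene's unique molecular identifiers (UMIs), summed over all kept cells, scaled to a common library total. This limit was met by 3383 of 32285 genes, and 3269 of these lay outside the *Hox* and electron transport chain sets. Whole kidneys were taken at E15.5 (embryonic day) and sequenced in droplets from the 3′ ends of transcripts, in 1 library each for Enl-WT (Enl +/+ Wt1 GFPCre/+), Enl-T1 (Enl flox-T1/+ Wt1 GFPCre/+) and Enl-T1 TDI-11055, which has the genotype of Enl-T1. TDI-11055 was given by mouth to the pregnant mothers at 100 mg/kg each day from E10.5 to E14.5, and the other libraries were untreated. All groups carried the Wt1 GFPCre knock-in, which replaces 1 working *Wt1* allele and drives Cre in precursors of nephron and stroma, so the ureteric epithelium lies largely outside the cells that recombine. T1 is a small in-frame insertion in the YEATS domain of ENL, and the mutant allele was present beside a normal one. Several embryos, of either sex, contributed to each library and their cells carry no embryo label. Each group therefore counted as 1 sample, no test between conditions was possible, and every 95% interval below covers counting error only.

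ENL, encoded by *Mllt1*, is a chromatin reader whose YEATS domain binds acylated lysines of histone tails and brings the transcription elongation machinery to target genes. TDI-11055 is a small molecule that occupies the acyl-binding pocket. The embryonic kidney grows by exchange between the branching ureteric bud, whose tips answer to GDNF from the surrounding mesenchyme, and the nephron progenitors of the cap mesenchyme, which renew or commit under WNT signals. The stroma around them forms the interstitium, and the ureteric trunk gives rise to collecting duct and to urothelium.

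Barcodes with 1000 to 6000 genes and a mitochondrial share of 1 to 10% were kept, 4024 untreated and 2015 treated, beside 5187 in Enl-WT. The median kept cell held 9540 UMIs without treatment and 19824 with it, and the kept cells summed to 43597313 and 38574194 UMIs. The limit of 1% removed 739 treated barcodes but 120 untreated ones, and the limit of 6000 genes was exceeded by 578 and 326. Female cells, judged by *Xist* UMIs in the absence of Y-linked ones, were 75% of the Enl-T1 cells and 45.3% of the treated cells. By markers, 19.96% of Enl-T1 cells were nephron, 34.5% stroma, 28.7% ureteric epithelium and 6.39% endothelium. In the treated library these shares were 30.4%, 11.5%, 46.5% and 5.16%. Outside these 4 lineages, a cluster led by *Sst* held 7.46% of Enl-T1 cells and 2.98% of treated cells, and a globin-led cluster 2.58% and 3.42%. Neural markers summed to 16.4 CPM in Enl-T1 and 17.2 CPM in the treated library, muscle markers to 8.42 and 4.23 CPM, and 12 immune markers to 57.7 and 15.04 CPM, with 1 of the 12 at 0 in the treated library. *Mllt1* stood at 17.1 CPM in Enl-T1 and 19.3 CPM after treatment, a sum over mutant and normal alleles, and *Wt1* at 40.0 and 37.1 CPM. Both libraries held 13 barcode sequences in common, 4 of them among kept cells.

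Most genes differed little. Over the 3383 genes the median log2 ratio of treated to untreated was 0.06, and 90% of the genes outside *Hox* and the electron transport chain lay between -0.63 and 0.59. A ratio of at least 2 was reached by 34 of these genes and a ratio of at most 0.5 by 82 (over all 3383 genes the shares were 1.03% higher and 2.57% lower). Only 3 of the 34 passed 4-fold, while 21 of the 82 did. The counting interval of each of these ratios was clear of 1, and for 25 higher and 64 lower genes it was clear of the 2-fold limit. None of 86 ribosomal protein genes passed 2-fold in either direction. The last gene inside the higher limit was *Cndp2* (log2 1.01) and the first outside it *Gadd45a* (0.99). At the lower limit these were *Sh3pxd2a* (-1.01) and *AY036118* (-0.99), and at the limit of 50 CPM *Arfrp1* (50.01 CPM, treated) and *Bmp7* (49.98 CPM, treated).

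**Figure D1:**
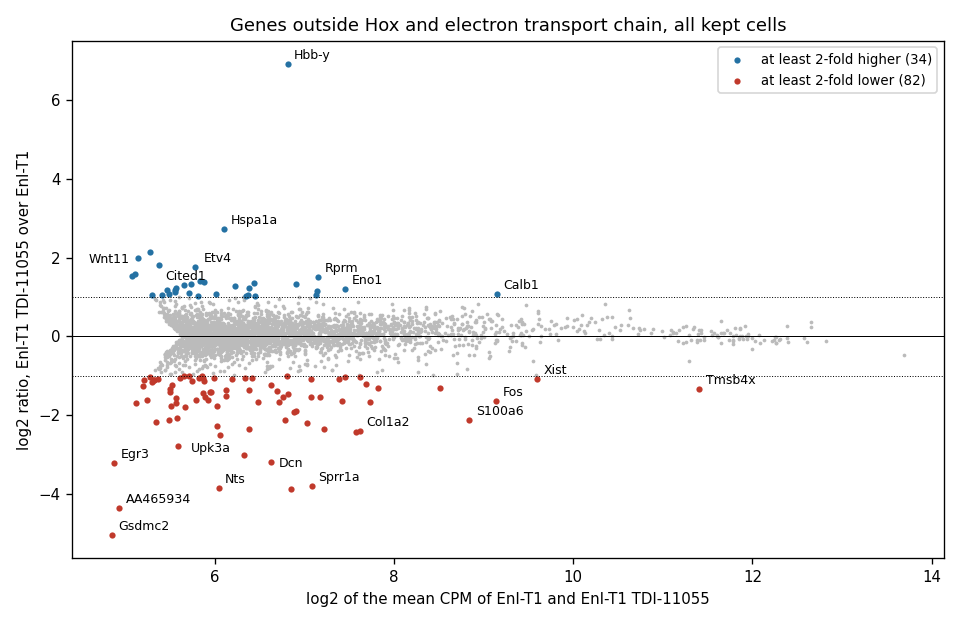
Log2 ratio of treated to untreated Enl-T1 (vertical axis) against the log2 of the mean CPM of both libraries (horizontal axis) for the 3269 genes; each point is 1 gene and dotted lines mark 2-fold. The 34 genes above the upper line are mostly under 3 on the log2 scale, and *Hbb-y* at 6.91 stands alone, while the 82 genes below the lower line reach -5.04.

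Whole-kidney sums mix the number of cells of a type with the RNA of each cell, and in such sums fewer cells of a type and less RNA per cell cannot be told apart. Ratios were therefore also taken within nephron, stroma, ureteric epithelium and endothelium, again for genes at 50 CPM there. In the nephron 0.758% of genes were called higher and 1.29% lower. The stroma had 1.67% higher and 2.67% lower, the ureteric epithelium 1.21% and 3.53%, and the endothelium 0.591% and 2.7%. Of the 34 higher genes 9 passed 2-fold in none of the 4 lineages, and of the 82 lower genes 23, among them *Col1a1*, *Col1a2*, *Col3a1*, *Zeb2* and *Penk*. *Hbb-y* and *Hspa1a* were called higher in all 4 lineages, *Hspa1a* not in stroma (0.56 on the log2 scale) and endothelium (0.84) when male cells alone were compared. *Cap1*, *Mcm5*, *Rrm2* and *1810026B05Rik* were higher in 3 of them, and *Fos*, *Fosb*, *Fosl2*, *Nr4a1*, *Btg2*, *Akap12*, *S100a6* and *Wnt4* lower in 3. The lineages did not hold the same clusters in both libraries. Most ureteric cells of Enl-T1 fell in cluster 2 (363 cells, led by *Apela*, *Gsdmc2* and *Sprr2f*) and cluster 4 (219), against clusters 4 and 7 (253 each) after treatment. The largest stromal cluster was cluster 6 in Enl-T1 (582 cells, led by *Nts* and including *Penk* among its leading genes) and cluster 13 (77 cells) after treatment, and the largest nephron cluster was cluster 5 (325) in Enl-T1 and cluster 3 (228) after treatment.

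The 20 largest ratios included those of a heat shock gene, of ureteric tip genes and of nephron progenitor genes. *Hspa1a*, which encodes the inducible chaperone HSP70, stood at 26.1 CPM in Enl-WT, 18.1 CPM in Enl-T1 and 119.6 CPM with TDI-11055. The treated level lay above both untreated ones and was 6.61-fold that of Enl-T1 (95% interval 6.13 to 7.14). Within lineages the ratio was 9.86 (7.59 to 13) in nephron, 3.52 (2.99 to 4.14) in stroma, 7.09 (6.36 to 7.92) in ureteric epithelium and 9.21 (6.78 to 12.7) in endothelium. Its near-identical neighbour *Hspa1b* went from 28.8 to 65.1 CPM, and the division of reads between both genes is uncertain. Both lie on chromosome 17, and the 250 bases before each start differed at 3 positions. Both promoters are printed to show how alike the pair is. Capitals mark a match to GAANNTTC, letters found in heat shock elements and the same on both strands, at bases 147 to 154 (minus strand of build GRCm38.p6, from RefSeq, 5′ to 3′).
Hspa1a (chr17:34972157-34972406): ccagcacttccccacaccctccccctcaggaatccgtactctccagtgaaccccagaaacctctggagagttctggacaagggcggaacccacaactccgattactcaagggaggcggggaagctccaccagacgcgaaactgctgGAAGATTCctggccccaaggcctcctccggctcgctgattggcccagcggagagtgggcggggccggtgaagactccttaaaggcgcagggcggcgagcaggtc
Hspa1b (chr17:34959239-34959488): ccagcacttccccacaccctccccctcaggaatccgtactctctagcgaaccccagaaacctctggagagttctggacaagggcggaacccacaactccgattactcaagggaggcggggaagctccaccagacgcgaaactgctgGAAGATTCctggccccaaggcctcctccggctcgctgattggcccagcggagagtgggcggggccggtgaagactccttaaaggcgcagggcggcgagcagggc
In windows from 250 bases before to 50 after the start, GAANNTTC occurred in 6 of 14 matched promoters of the heat shock list (42.9%). Its share was 7.95% of 27025 promoters and 5.67% of promoters of tested genes. Besides the alike pair *Hspa1a* and *Hspa1b*, the matches were *Hspe1*, *Dnaja1*, *Hspb1* and *Hsph1*, none of them called. The reverse order, TTCNNGAA, occurred in 2 of the 14 (14.3%) and in 8.40% of all promoters. The rest of the list moved less. Of 18 chaperone genes at the limit, the called ones were *Hspa1a* and *Hspa1b*, the list median was 0.32 on the log2 scale, *Hsp90aa1* stood at 0.49 and *Hspb1* at -0.45. *Hspa1a* was 3.40 on the log2 scale among female cells and 1.47 among male cells, and *Hspa1b* 1.54 and 0.42, so the size of both ratios, though not the direction, moved with the sex of the cells.

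Genes of the ureteric tip stood higher after treatment. *Wnt11*, a WNT ligand of the tip, was at 14.3 CPM in Enl-T1 and 56.6 CPM after treatment, with 25.5 CPM in Enl-WT. *Etv4*, a transcription factor induced by RET signalling, went from 25 to 84.8 CPM. *Gfra1*, the co-receptor for GDNF, and *Etv5*, a relative of *Etv4*, were also past 2-fold. In all, 5 of 8 tip genes at the limit were called higher and none lower, with a list median of 1.15 against 0.06 for all genes. Within the ureteric epithelium the median was 0.74 over 11 genes, *Wnt11* and *Etv4* stayed past 2-fold (3.63 and 3.12-fold) and *Gfra1* (1.72-fold) and *Etv5* (1.82-fold) did not. *Calb1*, a calcium-binding protein of the bud and duct, was at 999 CPM of ureteric epithelium in Enl-T1 and 1580.1 CPM after treatment, 1.58-fold (1.55 to 1.61). *Rprm*, a cell cycle inhibitor, reached 2.17-fold there (2.08 to 2.26). *Bmp7*, which missed the limit of 50 CPM over all cells in both Enl-T1 libraries, was 1.59-fold higher in that epithelium.

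Shares of cells showed the same order. After each cell was thinned to 2000 UMIs, *Wnt11* was detected in 4.61% (3.47 to 5.99) of 1149 ureteric cells of Enl-T1 and in 15.0% (12.7 to 17.4) of 928 treated ones. The unthinned shares stood at 16.1% and 42.3% (the median ureteric cell held 11764.5 and 19887 UMIs). Endothelium, which should lack the gene, had a share of 0 of 257 cells and 0.962% of 104 cells (median depths 10456 and 15294 UMIs). *Etv4* went from 6.35% to 17.5% of ureteric cells and *Calb1* from 49.96% to 74.03%. Unthinned, these shares were 23.3% and 51.6% for *Etv4*, and 62.8% and 87.2% for *Calb1*. The endothelial shares were 1.95% and 6.73% for *Calb1*, and 0.389% and 3.85% for *Etv4* (unthinned 4.67% and 17.3%).

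**Figure D2:**
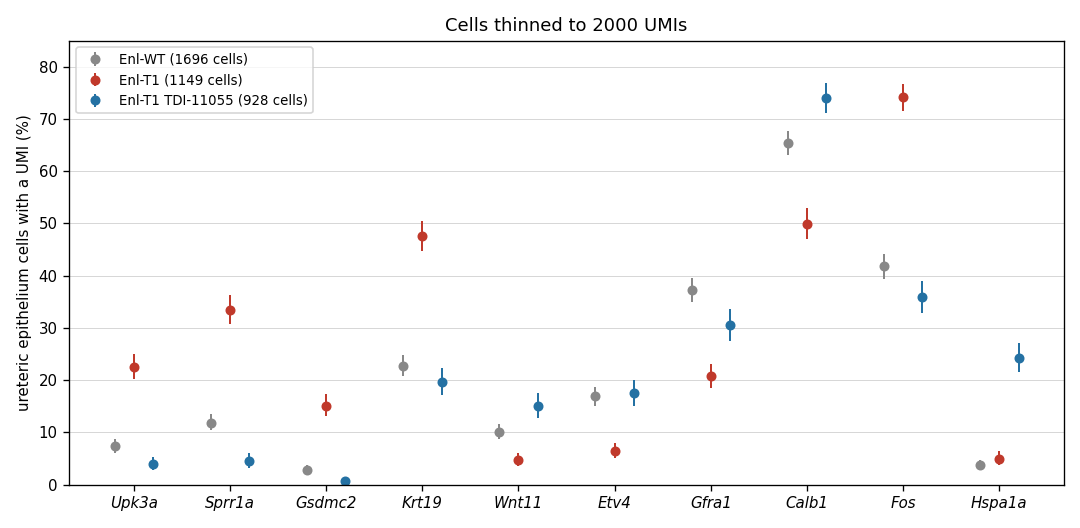
Percent of ureteric epithelium cells with at least 1 UMI of each gene (vertical axis, cells thinned to 2000 UMIs) in Enl-WT (grey), Enl-T1 (red) and Enl-T1 TDI-11055 (blue); bars are exact binomial 95% intervals. For urothelial genes, *Krt19* and *Fos* the Enl-T1 share was the highest of the 3 libraries (33.5% against 4.42% for *Sprr1a*), while for *Wnt11*, *Calb1* and *Hspa1a* the treated share was the highest.

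Lower in the same epithelium were genes of the urothelium, the lining of ureter and bladder, and of stratified epithelia. *Upk3a*, a plaque protein of the urothelium, was at 143 CPM in Enl-T1 and 17.7 CPM after treatment, with 28.8 CPM in Enl-WT. *Sprr1a*, a cornified envelope protein, went from 253 to 18.3 CPM, and *Sprr2f*, a member of the same family whose close paralogs make its count uncertain, from 217 to 14.8 CPM. *Gsdmc2*, a gasdermin, was 32.8-fold lower (25.7 to 42.5) at 56.1 and 1.71 CPM, and its count can be mixed with that of *Gsdmc3* (32.8 and 1.24 CPM), a near-identical neighbour. In these 3 libraries the Enl-T1 level was the highest for *Upk3a*, *Sprr1a*, *Sprr2f* and *Gsdmc2*, and the treated level the lowest. All 3 urothelium genes at the limit were called lower over all cells and all 4 within the ureteric epithelium, where the list median was -4.64 against 0.02 for the 3546 genes tested there. In that epithelium *Upk1b*, a further plaque protein, fell from 53.2 to 1.58 CPM. *Fxyd3*, a regulator of the sodium pump, was 6.83-fold lower there, *Apela*, a peptide ligand of the apelin receptor, 8.51-fold, and *Krt19*, a simple-epithelium keratin, 4.21-fold. *S100a6*, a calcium-binding protein, was 5.53-fold lower (1779.6 and 322 CPM). Clusters 2 and 18, the latter led by *Upk1b* and *Upk3a*, held 31.5% and 9.79% of the ureteric cells of Enl-T1 and 12.8% and 1.39% of the treated ones, a shift that moved with these ratios and whose part in them was not tested. Among male cells *Upk3a* was -1.19 and *S100a6* -1.04 on the log2 scale, against -3.14 and -2.24 among female cells.

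*Sprr1a* is printed here as the called lower gene with a pair of AP-1 motifs: the 250 bases before its start (minus strand, GRCm38.p6, RefSeq) hold TGAGTCA at bases 105 to 111 and 135 to 141, in capitals.
Sprr1a (chr3:92485882-92486131): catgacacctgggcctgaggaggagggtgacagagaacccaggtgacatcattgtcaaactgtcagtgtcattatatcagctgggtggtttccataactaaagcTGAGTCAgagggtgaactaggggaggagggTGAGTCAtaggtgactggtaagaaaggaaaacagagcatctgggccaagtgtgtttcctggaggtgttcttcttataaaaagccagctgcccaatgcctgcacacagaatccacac
TGAGTCA, searched on both strands, was present in 5.17% of all promoters, in 2.89% of promoters of tested genes and in 4 of 61 matched promoters of called lower genes (*Sprr2f*, *Sprr1a*, *Nts* and *Mylk*), a share of 6.56%.

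Immediate early genes, which cells switch on rapidly after stimulation and whose products include the AP-1 proteins, were called lower in larger numbers in stroma, ureteric epithelium and endothelium than in nephron, where fewer of them were measured. *Fos* was at 328 CPM in Enl-WT, 852 CPM in Enl-T1 and 273 CPM after treatment, 3.12-fold lower than in Enl-T1 (3.05 to 3.19). *Fosb* went from 189.6 to 50.5 CPM, *Nr4a1*, an orphan nuclear receptor, from 159.6 to 50.3 CPM and *Egr3*, a zinc finger factor, from 53.1 to 5.70 CPM. For each of these the Enl-WT level lay between those of the other libraries. Of 19 genes at the limit 6 were called lower and none higher, with a median of -0.72. In stroma 10 of 20 were lower (median -1.06), in ureteric epithelium 7 of 19 (-0.70) and in endothelium 8 of 18 (-0.77), and in nephron 0 of 9 with a median of 0.28. The lineages did not test the same genes, and the difference between them was not tested. Below the limit in nephron, *Egr3* had a log2 ratio of -2.14, *Fosb* of -1.40 and *Nr4a1* of -0.66 there. *Jun* (0.45) and *Ier2* (0.52) stood higher over all cells without passing 2-fold. *Btg2*, an antiproliferative gene of the list, was 3.10-fold lower in stroma (593 and 192 CPM) and 1.29-fold higher in nephron (102 and 131 CPM). *Fos* itself was 1.97-fold lower in nephron, a log2 ratio of -0.98. It passed 2-fold lower there without the lower mitochondrial limit (-1.09), among female cells alone (-1.10) and with the *Sst*-led cluster added (-1.16). It did not among male cells alone (-0.57) or without the upper gene limit (-0.69). Thinned shares of *Fos* in stroma were 71.2% (68.7 to 73.6) and 34.9% (28.8 to 41.4), and in ureteric epithelium 74.2% and 35.9% (unthinned 89.4% and 70.3%, 95.1% and 77.9%). Several of these calls were lost among male cells. There the log2 ratio of *Fosb* was -0.74 in stroma and 0.31 in endothelium, that of *Nr4a1* -0.43 and that of *Fos* -0.95 in endothelium, and that of *Klf4* -0.04 over all cells against -1.41 among female cells.

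The promoter of *Fosb*, the AP-1 gene with the smallest ratio over all cells (within stroma and endothelium *Fosl2* had a smaller one), is shown for its single match to TGACGCAA, a variant of the cyclic AMP response element, at bases 191 to 198 (minus strand, GRCm38.p6, RefSeq, 250 bases before the start).
Fosb (chr7:19310046-19310295): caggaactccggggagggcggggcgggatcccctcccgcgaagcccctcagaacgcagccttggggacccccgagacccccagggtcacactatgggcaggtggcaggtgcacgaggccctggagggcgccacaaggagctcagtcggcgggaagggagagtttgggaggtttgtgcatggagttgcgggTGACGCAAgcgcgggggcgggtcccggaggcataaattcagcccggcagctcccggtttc
These letters occurred in 0.511% of all promoters, and among 16 matched promoters of the immediate early list only that of *Fosb* held them.

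**Figure D3:**
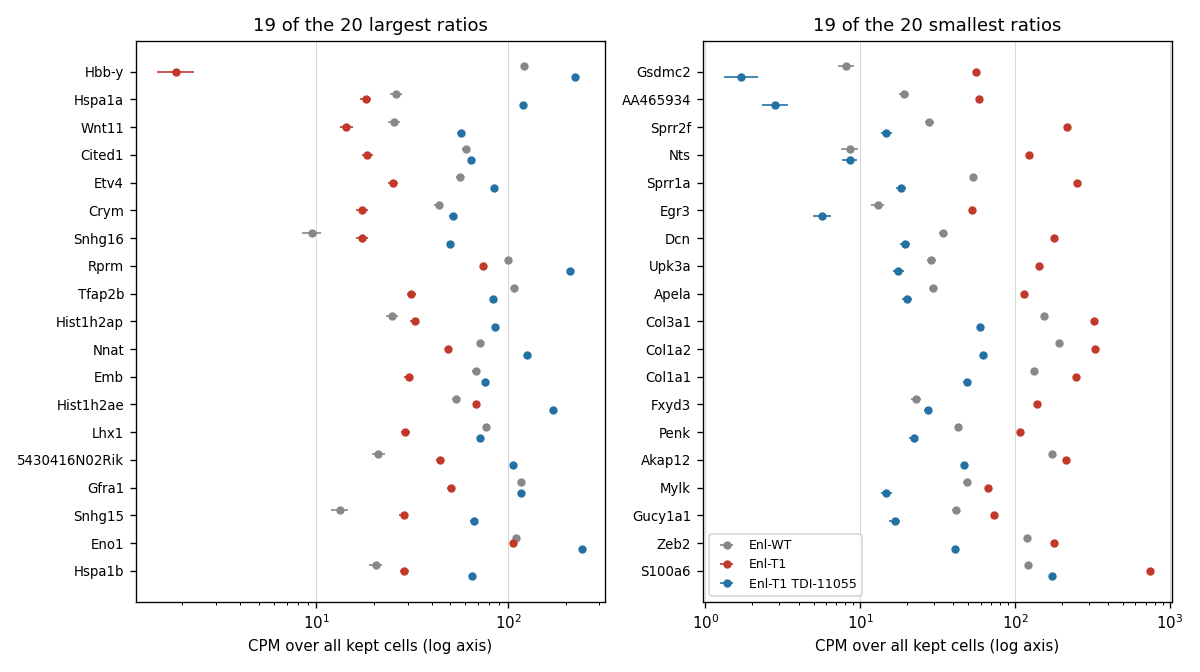
CPM over all kept cells (horizontal log axis) of 19 of the 20 genes with the largest and 19 of the 20 with the smallest treated to untreated ratio, in Enl-WT (grey), Enl-T1 (red) and Enl-T1 TDI-11055 (blue); bars are exact Poisson 95% intervals. *Hbb-y* spans from 1.86 to 223 CPM, and in the right panel the Enl-T1 points lie to the right of the treated points for all 19 genes.

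In the nephron, progenitor genes stood higher and *Wnt4* lower. *Cited1*, a transcriptional co-regulator of self-renewing progenitors, was at 126 CPM of the nephron in Enl-WT, 58.7 in Enl-T1 and 154 after treatment, 2.63-fold the Enl-T1 level (2.40 to 2.88). *Crym*, a thyroid hormone binding protein of the same cells, went from 37.7 to 130.3 CPM, 3.46-fold (3.10 to 3.87). Both treated levels lay above those of Enl-WT. Of 13 progenitor genes at the limit in the nephron 4 were called higher (*Cited1*, *Crym*, *Osr1* and *Meox2*) and none lower, with a median of 0.63 against 0.06. Without the upper limit on genes per cell 2 were higher and the median was 0.39. *Wnt4*, the WNT ligand that starts commitment and epithelial transition, was at 149, 310.0 and 145 CPM, 2.14-fold lower than in Enl-T1 (2.02 to 2.27). Without the upper limit on genes per cell its log2 ratio in nephron was -0.81, short of 2-fold. Over all cells, where the log2 ratio was -1.04, *Wnt4* also fell short of 2-fold in 5 of the alternative settings, among them no upper gene limit (-0.90) and male cells alone (-0.95). *Wnt4* was also lower in stroma (2.61-fold) and in ureteric epithelium (2.62-fold). Of 10 commitment genes at the limit in nephron *Wnt4* was the only call, with *Pax8*, a factor of early nephrons, at 0.28, *Ccnd1*, a G1 cyclin, at 0.22 and *Lhx1*, a factor of early nephrons and tips, at 0.46 on the log2 scale. In ureteric epithelium *Lhx1* (2.45-fold) and *Ccnd1* (2.26-fold) were called higher.

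Genes of later nephron segments were measured at low levels in Enl-T1. *Sostdc1*, a WNT and BMP antagonist that stayed below 50 CPM over all cells in both Enl-T1 libraries, went from 20.1 to 89.3 CPM of the nephron, with 180.3 CPM in Enl-WT, and *Tfap2b*, a distal nephron factor, from 25.8 to 68.7 CPM, with 141 CPM. For both genes the treated level lay between those of the untreated libraries. Cluster 1, with *Sostdc1* among its leading genes, held 12.6% of nephron cells in Enl-T1, 22.3% after treatment and 28.6% in Enl-WT. The part of this shift in both levels was not tested. The podocyte list as a whole had 2 of 6 genes called higher in the nephron, among them *Cdkn1c*, a cell cycle inhibitor, and a median of 0.02. No gene of the proximal tubule list reached 50 CPM over all cells in either of these libraries. After thinning, the progenitor gene *Crym* was detected in 6.88% and 20.7% of nephron cells and in 0.389% and 0.962% of endothelial cells (unthinned in nephron 21.8% and 54.7%).

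*AA465934*, an uncharacterised transcript, had the smallest ratio after *Gsdmc2*. It stood at 19.2 CPM in Enl-WT, 58.2 in Enl-T1 and 2.83 after treatment, 20.6-fold lower (17.01 to 25.2). In nephron it was 32.1-fold lower (71.4 and 2.22 CPM) and in stroma 16.6-fold lower (64.9 and 3.91 CPM). The thinned share of nephron cells with it was 12.4% in Enl-T1 and 0.657% in the treated library (unthinned 55.6% and 4.76%). In endothelium, where it stayed below 50 CPM, the thinned shares were 12.8% of 257 cells and 0 of 104 (unthinned 37.0% and 0.962%). The lower level was thus not confined to nephron and stroma.

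Several stromal genes were called lower over all cells and did not pass 2-fold within stroma. *Col3a1*, *Col1a2* and *Col1a1*, fibrillar collagen chains, were 5.40, 5.31 and 5.12-fold lower over all cells but 1.80, 1.93 and 1.73-fold lower within the stroma. *Penk*, a precursor of enkephalin, was 4.87-fold and 1.63-fold lower, and *Zeb2*, a repressor of epithelial genes, 4.35-fold and 1.89-fold. *Mgp*, an inhibitor of calcification, *Myl9*, a myosin light chain, and *Meis1*, a homeobox factor, had ratios of 1.17, 1.07 and 1.04 within the stroma while called lower over all cells. With the lineages set to equal shares in both libraries, the log2 ratio of *Mgp* was 0.03 and that of *Myl9* 0.05. The collagen and matrix list had 7 of 18 genes lower over all cells (median -0.65) and 7 of 31 within the stroma (median -0.74), but its median over all cells was -0.24 at equal lineage shares.

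A smaller group of stromal genes passed 2-fold within the stroma itself. *Dcn*, a collagen-binding proteoglycan, was at 249 CPM of the stroma in Enl-WT, 673 CPM in Enl-T1 and 182 CPM after treatment, 3.70-fold lower (3.41 to 4.03). *Nts*, the peptide neurotensin, was at 49.1, 471 and 92.4 CPM, 5.10-fold lower (4.55 to 5.74), and *Ntng1*, a membrane-anchored netrin, at 16.7, 97.8 and 13.8 CPM. For each, the Enl-T1 level was the highest of the 3 libraries. Thinned shares of stromal cells were 27.6% and 6.90% for *Nts* and 48.3% and 20.3% for *Dcn*, with 5.2% and 21.4% in Enl-WT and at most 3.64% in endothelium (unthinned 33.8% and 10.3%, 66.1% and 40.9%). *Mylk*, the myosin light chain kinase, was 2.44-fold lower there. *Ntng1* and the next pair stayed below 50 CPM over all cells. Higher in stroma were *Gdnf*, the ligand that guides the ureteric tip (13.02 and 51.7 CPM, 3.97-fold, 3.17 to 4.99), and *Npy*, a neuropeptide (6.87 and 55.05 CPM). Cluster 6, led by *Nts*, held 41.9% of Enl-T1 stroma and 22.4% of treated stroma, and cluster 17, led by *Dcn* and *Lum*, 14.6% and 3.45%. Only 232 treated cells were stromal, in contrast to 1389 of Enl-T1.

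**Figure D4:**
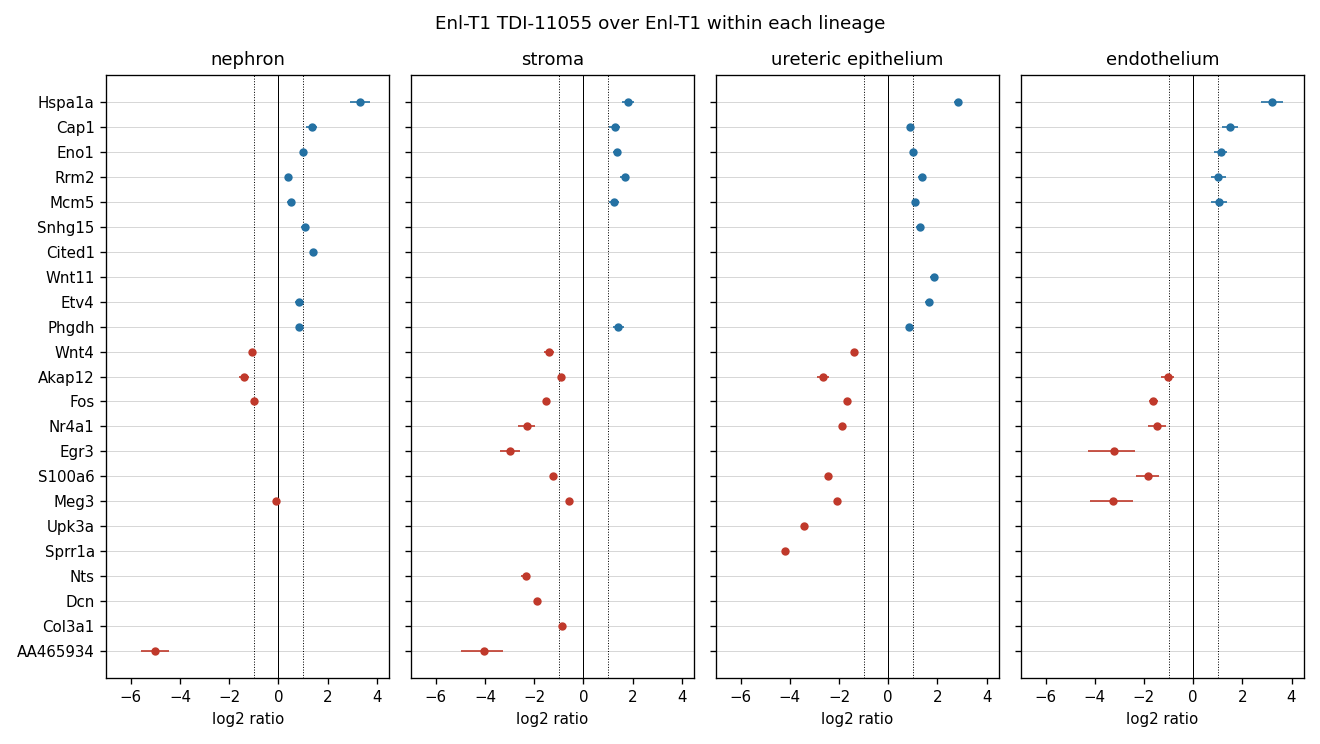
Log2 ratio of treated to untreated Enl-T1 (horizontal axis) of 23 genes within each of 4 lineages; points are ratios, bars their exact 95% counting intervals, dotted lines 2-fold, and a gene is drawn only where it reached 50 CPM in 1 of both libraries. *Hspa1a* lies above 1 in each lineage, *Fos* and *Nr4a1* lie below -1 in stroma, ureteric epithelium and endothelium, and *Col3a1* (-0.85 in stroma) lies inside the dotted lines.

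Among the lowest ratios in the endothelium were those of *Meg3*, an imprinted long noncoding RNA, at 70.4 and 7.43 CPM (9.47-fold lower, 5.43 to 18.1), and *Prox1*, the factor of lymphatic identity, at 69.4 and 8.57 CPM (below 50 CPM over all cells). Cluster 20, led by *Ccl21a*, *Mmrn1* and *Prox1*, held 23 of 257 endothelial cells of Enl-T1 and 3 of 104 treated ones, which moves with the *Prox1* ratio. *Meg3* was 4.21-fold lower in ureteric epithelium too, and stood at 66.0 and 62.3 CPM in nephron. Of 6 nuclear long noncoding RNAs at the limit in endothelium 4 were called lower (*Malat1*, *Neat1*, *Meg3* and *Xist*, median -1.12). The libraries differed in their share of female cells, and over all lineages the log2 ratio of *Xist* was -1.09, but -0.40 among female cells alone. The rho of ratio and exonic length was -0.50 in endothelium, and the part of RNA composition in the *Meg3* ratio was not tested. Of 16 endothelial genes none was called within the endothelium (median -0.17). *Akap12*, an anchor of protein kinase A, was lower in 4 of 4 lineages, past 2-fold in nephron (2.64), ureteric epithelium (6.22) and endothelium (2.04), and 1.86-fold in stroma. Among male cells it passed 2-fold in none of the 4 lineages, with log2 ratios of -0.58 in nephron, -0.68 in ureteric epithelium, -0.83 in stroma and 0.17 in endothelium (34 cells in each library).

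Among metabolic and growth genes few were called. *Eno1*, a glycolytic enzyme with a near-identical copy that makes its count uncertain, was at 107 and 244 CPM, and higher by 1.99 to 2.58-fold in the 4 lineages. *Pkm* (0.82), *Gapdh* (0.81) and *Pgk1* (0.67) were also above the median of all genes, and the list of 14 hypoxia and glycolysis genes ran from -0.69 to 1.19 with a median of 0.49 and *Eno1* as its only call. *Phgdh* and *Psph*, enzymes of serine synthesis, were 2.21-fold (2.13 to 2.30) and 2.10-fold (1.98 to 2.22) higher, the calls among 8 amino acid stress genes with a median of 0.52. All 31 proteasome genes had ratios above 1 (log2 0.05 to 0.62, median 0.33), as had 1961 of all 3383 genes, and none passed 2-fold. Genes for translation factors (median 0.25), splicing factors (0.26) and nucleolar proteins (0.35) had no call over all cells either. Ratios tended to fall with exonic length (Spearman's rho of ratio and exonic length -0.27 across genes), but not evenly. In 4 groups of genes, from shortest to longest, the median log2 ratios were 0.099, 0.198, 0.069 and -0.119. Relative to genes of like length the median was 0.14 for proteasome and 0.10 for translation factor genes. The 13 genes of ENL's own elongation complexes had a median of -0.04 and no call. The host genes *Snhg15* (28.6 and 66.3 CPM) and *Snhg16* (17.2 and 50.1 CPM) were past 2-fold, but at 0.24 and 0.64 on the log2 scale among male cells and 1.70 and 1.94 among female cells. *Cap1*, an actin regulator, was higher in all 4 lineages, by 1.86 to 2.84-fold.

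S phase and mitosis genes did not move together. *Rrm2*, a subunit of ribonucleotide reductase, was at 58.0 and 117 CPM, and 3.21-fold higher in stroma, 2.57-fold in ureteric epithelium, 2.03-fold in endothelium and 1.32-fold in nephron. The 21 S phase genes had a median of 0.55 over all cells, with *Rrm2* their only call. In stroma 6 of 25 were called higher and in nephron none (median 0.08). Mitosis genes had a median of -0.23 over all cells. *Nusap1* and *Prc1*, spindle proteins, were lower by 1.07 and 1.05 on the log2 scale, and 12 of 29 mitosis genes were called lower in nephron (median -0.82). Without the upper limit of 6000 genes per cell, which left out 578 treated barcodes, none was called, the nephron median was -0.14, and over all cells it was 0.25 with *Nusap1* at -0.26 and *Prc1* at -0.24. The replication-linked histones *Hist1h2ap* and *Hist1h2ae*, near-identical genes whose reads can be split, were 2.61 and 2.5-fold higher over all cells, and 3.46 and 3.85-fold in stroma.

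**Figure D5:**
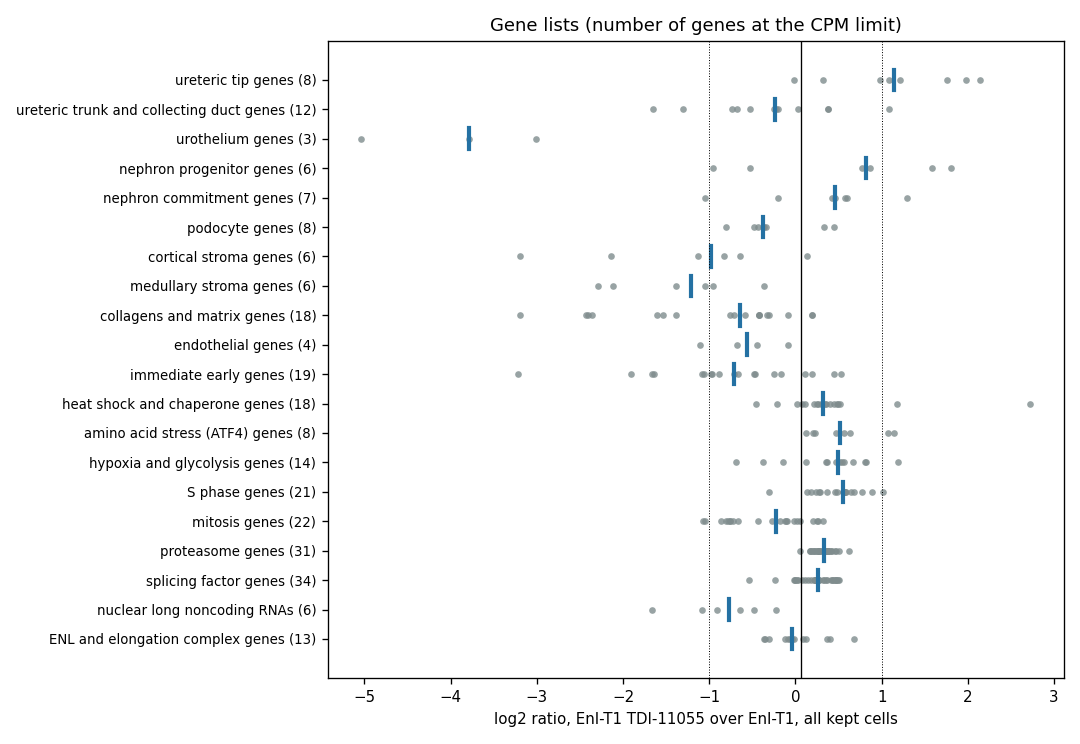
Log2 ratio of treated to untreated Enl-T1 over all kept cells (horizontal axis) for the genes of 20 lists that reached 50 CPM, their number in parentheses; grey points are genes, blue bars list medians, dotted lines 2-fold and the black line the median of the 3269 genes (0.06). The lowest list median is that of the urothelium genes (-3.79, 3 genes) and the highest that of the ureteric tip genes (1.15, 8 genes).

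*Hbb-y*, the embryonic beta-like globin of primitive red cells, had the largest ratio of all, at 1.86 CPM in Enl-T1 (81 UMIs) and 223 CPM in the treated library, with 121 CPM in Enl-WT. It was higher in all 4 lineages, by 35.7-fold in endothelium to 236-fold in ureteric epithelium. With the highest doublet scores removed (130 Enl-T1 and 32 treated cells), its log2 ratio over all kept cells moved from 6.91 to 5.67. Thinned treated cells with *Hbb-y* held on average 9.52 of its UMIs in ureteric epithelium, 4.36 in stroma, 3.21 in nephron and 2 in endothelium. Haemoglobin genes together took 0.144% of the kept UMIs of Enl-T1 and 0.172% of those of the treated library, but 2.20% and 8.16% of the UMIs of the barcodes left out, and 4.14% of all treated UMIs. *Hbb-y* stood at 0.25 UMIs per 100 of the adult-type *Hbb-bs* among kept cells of Enl-T1, 34.96 in treated and 12.02 in Enl-WT cells, and at 1.07, 20.6 and 9.72 over all barcodes. Within the 4 lineages of the treated library this ratio ran from 9.84 in stroma to 57.5 in endothelium, and it was 168 in the globin-led cluster outside them. The kept cells of that cluster were not rich in haemoglobin RNA, at 0.0546% of their UMIs in Enl-T1 and 0.134% in the treated library. Its leading genes had been ranked over barcodes that included some outside the filter. Haemoglobin RNA in the barcodes left out, and its embryonic share, moved with the *Hbb-y* level of the kept cells, and their part in the result was not tested.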

How the data were processed

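Droplet 3′ single-cell libraries of whole kidneys, 1 library for each group, were analysed from the deposited matrices of raw UMI counts, which the authors made with Cell Ranger 6.1.2 on the mm10 genome. The values are whole counts for 32285 genes with no further normalization. Barcodes with 1000 to 6000 genes and a mitochondrial share of 1 to 10% were kept. The lower mitochondrial limit is not part of the study's stated filter, and settings without it are given below. UMIs were summed per library over kept cells and scaled to CPM, and genes with at least 50 CPM in Enl-T1 or Enl-T1 TDI-11055 were compared. A gene was called at a ratio of 2. Ratio intervals are exact 95% intervals from the binomial split of the counts and shares carry Clopper-Pearson intervals. UMIs are counted molecules, and the intervals cover counting error only, not the spread between embryos. With 1 library per group no p-value was computed.

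Libraries were integrated in Seurat 5.3.0 (R 4.3.3; anchors on 2000 variable genes, 30 dimensions, resolution 1, seed 1), and clusters were named from marker lists. A cluster led by *Sst*, which stayed unnamed, and a globin-led cluster were left out of the 4 lineages. With the *Sst*-led cluster added, the nephron held 1103 Enl-T1 and 673 treated cells instead of 803 and 613. The log2 ratio there then moved from -0.66 to -1.04 for *Nr4a1* and from -1.74 to -1.51 for *Nusap1*. Doublets were kept, and removal of the highest Scrublet scores at 0.8% per 1000 barcodes was an alternative. For shares of cells, each cell was thinned to 2000 UMIs, and shallower cells were left out (5 ureteric cells of Enl-T1 and 8 of the treated library). Sums and ratios used Python 3.11.15 with numpy 2.4.6, scipy 1.17.1 and pandas 2.3.3. In data simulated for the comparison over all kept cells, 100% of 50 genes changed 4-fold were called. The simulated counts held counting error only, so at 50 CPM this outcome was given by the setting. It checks the calculation and cannot show how reliable a call from 1 library per group is.

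Outside *Hox*, electron transport chain, ribosomal protein, *Xist* and Y-linked genes, the rule for named genes took the 20 largest and 20 smallest ratios, up to 10 genes in each direction called the same way in the most lineages, the 5 at each end within each lineage, called members of the gene lists (the text gives a selection), the genes at the limits, and marker or target genes used as checks. List members named although not past 2-fold, such as *Jun*, *Pax8* and *Hspb1*, were chosen after their values were seen. The genes, lists and filters were chosen with earlier results of these data known. A few genes that the rule takes are not reported here. Promoters came from RefSeq (GRCm38.p6). Alternatives covered cell filters, scaling, low-value filters, thinning, lineage shares, doublets, sex of the cells and exonic length.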

Additional observations from a re-analysis of the deposited data

Results flagged for a closer look

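Some genes passed 2-fold in opposite directions in different lineages, and the difference between lineages was not tested. *Sostdc1* had a log2 ratio of treated to untreated Enl-T1 of 2.15 in nephron and -3.11 in stroma. *Igfbp7*, a secreted binding protein of insulin-like growth factors, stood at 1.31 in nephron, -1.60 in ureteric epithelium and -2.59 in endothelium. The adult-type globins also split, *Hba-a1* at 1.501 in ureteric epithelium and -2.12 in endothelium, *Hba-a2* at 1.503 and -2.02 in the same lineages, and *Hbb-bt* at -1.59 in nephron, 1.15 in stroma and -2.76 in endothelium. *Hba-a1* and *Hba-a2* are near-identical, so the division of their reads is uncertain.

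Among barcodes outside the comparison, those that failed the filters, haemoglobin genes took 8.16% of the UMIs in the treated library, against 2.20% in untreated Enl-T1 and 7.77% in Enl-WT.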

How the results depend on the processing

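With 1 library per group no replicate could be left out. No paired analysis was possible because each group holds a single library. Against 35 genes at least 2-fold higher and 87 genes at least 2-fold lower (median log2 0.06), a limit of 20 CPM gave 75 and 219 (median 0.039), no limit beyond 1 UMI gave 1126 and 2516 (median -0.032), and a fold of 1.5 gave 166 and 194. Equal lineage shares in both libraries left 17 and 53, with 19 of the 35 and 40 of the 87 still called, and turned *Mgp* to 0.033 and *Myl9* to 0.054. Male cells alone gave 18 higher genes. The median was 0 with median-of-ratios scaling, 0.028 with totals free of mitochondrial, ribosomal protein and haemoglobin genes, 0.076 in thinned cells and -0.00057 relative to genes of like exonic length. Within lineages, male cells alone gave 51 higher genes in nephron, 49 lower in ureteric epithelium and 65 higher in endothelium, female cells alone 57 higher in endothelium, and no upper gene limit 17 lower in nephron and 44 lower in endothelium. The cause of these shifts was not tested. Leaving out the globin-led or the unnamed cluster, adding the latter to the nephron, and the settings per lineage and list for sex, cell filters and scaling were chosen after seeing the data, and both clusters' removal moved neither count over all cells by more than 1.5 times. Of 73 named genes called over all cells, 42 stayed past 2-fold at equal lineage shares (71 in the same direction), 60 without the upper gene limit and 67 without the lower mitochondrial limit, and 53 of 72 in male cells alone. Counts below 50 CPM limit what the stroma and endothelium of the treated library, 232 and 104 cells, can show.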

Other observations

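Cholesterol synthesis genes differed by lineage. In stroma 4 of 12 genes at the limit were called higher (*Fdps*, *Sqle*, *Msmo1* and *Acat2*, enzymes of the pathway), with a median log2 ratio of 0.87 against 0.10 for all genes tested there. The medians were -0.25 over 17 genes in ureteric epithelium and 0.04 over 9 in nephron, with no call in either. The difference between lineages was not tested. Of 6 p53 target and 5 xenobiotic response genes at the limit over all cells none was called, with medians of -0.11 and -0.24.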
